A study of Mus musculus with 4 samples.

Results

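Genes that mark the epithelium of the uterine lining were examined in mouse endometriotic lesions, uterine-lining tissue that grows at sites other than the uterus. The list held 36 genes, chosen by name, and every probe set annotated to exactly 1 of them was taken. For 34 of the 36 genes there was such a probe set, out of 18193 genes on the array, and the brightest probe set stood for the gene. Sprr2b had none, and the 3 probe sets annotated to Sprr2a1 also carry the symbols of its near-identical neighbours. The expression of these small proline-rich protein genes was therefore not analysed here. Gene expression was measured on Affymetrix 3′ arrays of 4 lesion samples, 2 from mice on a high-fat diet and 2 from mice on a casein diet, which the labels name as the control. The labels give no strain, genotype, age or host for either group and do not say how many animals or lesions an array holds, so p-values measure only the spread between these samples, which may be technical.

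The endometrial epithelium is a single layer that lines the uterine cavity and dips into the stroma as glands. Its cells are held together by E-cadherin, desmosomes and claudin-based tight junctions, carry an internal scaffold of simple-epithelial keratins, and keep their identity through transcription factors such as GRHL2, OVOL2 and the ETS factors ELF3 and EHF. SOX17, PAX8 and FOXA2 mark epithelium of the female reproductive tract and its glands, and estrogen and progesterone set much of what the cells secrete. In endometriosis, glands of this epithelium within stroma define the lesion. Many of these genes, the keratins and claudins among them, are also active in the epithelium of the stomach and intestine, and the keratins in mesothelium.

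Levels are given as deposited intensities, linear and already made comparable between arrays by the authors. A diet difference is the mean log2 intensity of the high-fat arrays less that of the casein arrays. All 34 genes reached the intensity minimum of 34.7 (the 40th percentile of the means of all probe sets but controls), as did 12847 genes in all. Spink1 reached it only through high-fat diet replicate 2. Median intensities were alike, from 55.1 to 56.5. Markers of other tissues were uneven, however. Of 15 gastric epithelium markers 14 were on the array, and their summed intensity was 79667 and 10373 in the casein arrays against 492.3 and 515.1 in the high-fat arrays. Tff1, Gkn2 and Gkn1, secreted products of stomach surface cells, were the brightest of them. Of 8 skeletal muscle markers, all on the array, the summed intensity was 29900.3 in high-fat diet replicate 1 and at most 880.3 in the other 3 arrays. The 10 endometrial stroma markers summed to 27063 and 31744 in the casein arrays against 31156 and 29730.5 in the high-fat arrays, sums to which Dcn, Vim and Lum gave the most. Their mean log2 deviation from each gene's 4-array mean was lowest in casein diet replicate 1, at -0.33 against 0.06 to 0.16 in the others. Hoxa10, a homeobox gene of uterine stroma chosen here after its values were seen, had 647.2 and 1547 in the casein arrays against 1886 and 1521 in the high-fat arrays. Other markers of that list, chosen likewise, ran differently. Pgr had 2761 and 2600 in the casein arrays against 2032 and 2068 in the high-fat arrays, and Esr1 had 3800 and 3775, then 3319 and 4046. Casein diet replicate 1 was the highest array for 1 of the 10, Pgr, against 33.4% of all genes tested. Because these are whole lesions, fewer epithelial cells and less RNA per epithelial cell cannot be told apart.

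Epithelial genes had lower values on the high-fat diet for 28 of 34 genes, with a median difference of -0.51. That median rested on 1 high-fat array, though not every gene's difference did. High-fat diet replicate 1 was the lowest of the 4 arrays for 27 of the 34 genes, against 29.6% of all genes tested. High-fat diet replicate 2 exceeded replicate 1 for 33 of the 34 genes, by a median of 0.95 log2. Of all genes tested, 47.0% were lower in replicate 2 than in replicate 1, and the median was 0.01 log2. Without high-fat diet replicate 1 the median diet difference was -0.002, with 17 genes above the casein diet and 17 below it. Of those below, Krt19, Krt8 and Krt7 were the farthest, at -1.61, -1.54 and -1.40. Of those above, Aqp8 and Spink1 were the farthest, at 4.49 and 3.74. Across all genes tested the median difference was -0.005, and 51.4% were lower.

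In limma's test across all genes, with Benjamini-Hochberg adjusted p under 0.05 as the threshold, 0 of the 34 epithelial genes passed (smallest adjusted p = 0.859), nor did any gene on the array (0 of 12847, or 0%). At an unadjusted p under 0.05 there were 3 of the 34, Cldn7, Wnt7a and Tjp3, against 623 genes, or 4.85%, of all tested. Both high-fat arrays lay below both casein arrays for 11 of the 34, or 32.4%, against 19.5% of all genes tested. The opposite held for Spink1 alone, against 16.7%. For 26 of the 34 genes the larger gap between the arrays of 1 diet exceeded the difference between diets, as it did for 78.6% of all genes tested. With 2 arrays against 2 the smallest two-sided exact permutation p is 0.333, so single genes were tested only within limma's model.

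**Figure D1:**
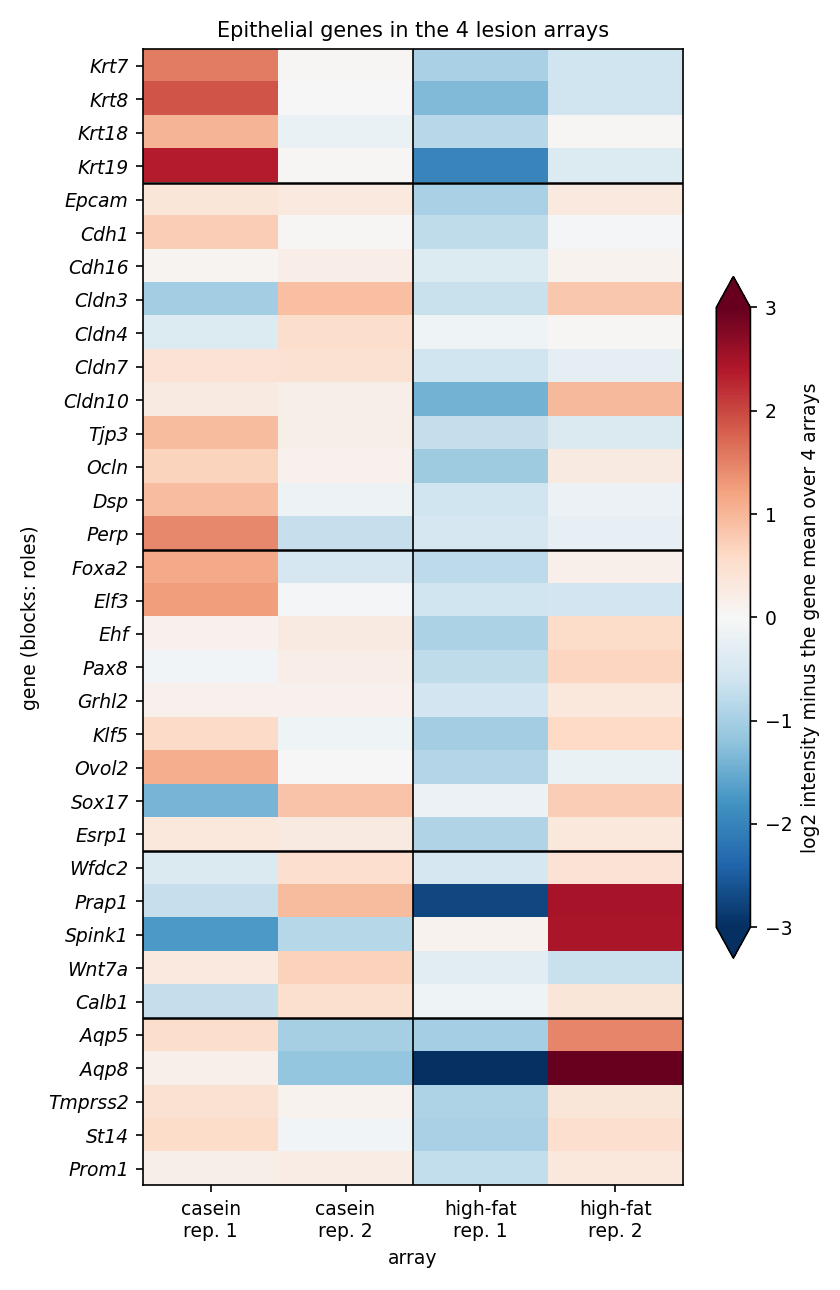
Log2 intensity of each of 34 epithelial genes minus its mean over the 4 arrays (colour scale from -3 to 3), with genes in rows grouped by role and arrays in columns. The column of high-fat diet replicate 1 is blue in nearly every row and lowest for 27 genes, and the keratin rows are red in casein diet replicate 1.

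The 4 keratin genes, which encode the intermediate filaments of simple epithelia, had a median difference of -1.74, the largest median in size of the 5 roles, while single values ran from -2.39 for Krt19 to -0.81 for Krt18. Krt8 had intensities of 10009 and 2729 in the casein arrays against 1079.6 and 1796 in the high-fat arrays, a difference of -1.91 (SE 0.74, 95% interval -4.03 to 0.21). Its filament partner Krt18 had 2714 and 1178 in the casein arrays against 753.6 and 1370.1 in the high-fat arrays. The groups did not overlap for Krt8 and overlapped for Krt18. Krt19 ranged most of the 4, with 5236 and 1053 in the casein arrays against 261.3 and 771.7 in the high-fat arrays, a difference of -2.39 (SE 1.03, 95% interval -5.32 to 0.55). Krt7, a keratin of ducts and glands, had 1723 and 608.7 in the casein arrays against 301.4 and 388.9 in the high-fat arrays, a difference of -1.58 (SE 0.57). Casein diet replicate 1 was the highest array for all 4 keratins, 1.98- to 4.97-fold above the next. It also held the highest gastric markers, and the mean deviation of the 14 gastric markers was 3.37 there against 0.70, -2.05 and -2.02 in the other arrays. Mesothelium markers also had their highest mean deviation in that array, 0.87 over the 8, against 0.27 in casein diet replicate 2 and -0.65 and -0.49 in the high-fat arrays. Of the 7 tested, 5 had both high-fat arrays below both casein arrays, against 19.5% of all genes tested, and 5 had an unadjusted limma p under 0.05, against 4.85%, with 0 passing the adjusted threshold. The part of gastric and mesothelial cells in the keratin values was not tested. Without casein diet replicate 1, the differences of Krt8, Krt19 and Krt7 were -0.97, -1.23 and -0.83. Between the replicate 2 arrays alone, Krt8, Krt19 and Krt7 differed by -0.60, -0.45 and -0.65, and Krt18 by 0.22.

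Krt8 and Krt18 lie near each other on chromosome 15, and their promoter windows are shown because the pair had the same order of arrays except for high-fat diet replicate 2. The windows, from RefSeq (GRCm38.p6), run from 250 bases before to 50 after the annotated start, 5′ to 3′ along the gene. Krt8 is on the minus strand at chr15:102004293-102004592 and Krt18 on the plus strand at chr15:102027966-102028265. Capitals mark CACCTG, or CAGGTG on the other strand, the E-box bound by the ZEB and SNAI factors, which repress epithelial genes.
Krt8: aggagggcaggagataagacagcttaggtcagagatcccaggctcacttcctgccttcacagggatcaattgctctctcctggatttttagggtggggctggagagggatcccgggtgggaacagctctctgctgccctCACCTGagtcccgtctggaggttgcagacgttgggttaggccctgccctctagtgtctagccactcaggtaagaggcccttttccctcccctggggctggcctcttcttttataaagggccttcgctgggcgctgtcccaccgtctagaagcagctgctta
Krt18: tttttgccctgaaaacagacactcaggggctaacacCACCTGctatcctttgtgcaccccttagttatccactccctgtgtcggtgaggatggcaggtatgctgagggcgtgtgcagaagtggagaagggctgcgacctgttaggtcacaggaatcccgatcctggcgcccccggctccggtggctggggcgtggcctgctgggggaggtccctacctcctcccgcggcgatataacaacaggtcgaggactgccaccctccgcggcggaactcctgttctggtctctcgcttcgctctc
Each window holds the motif at 1 place.

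Junction and adhesion genes had lower values on the high-fat diet for 10 of 11, against 51.4% of all genes tested, with a median of -0.75. Cldn7, a claudin of the lateral membrane, had the smallest p of the 34 genes. Its intensities were 1239 and 1255 in the casein arrays against 607.6 and 750.5 in the high-fat arrays, so the arrays of each diet lay close together. The difference was -0.88 (SE 0.14, 95% interval -1.29 to -0.48, limma unadjusted p = 0.00425, adjusted p = 0.859), and it stayed between -1.04 and -0.73 when any 1 array was left out. Tjp3, a scaffold of tight junctions, had 314.6 and 183.3 in the casein arrays against 99.8 and 121.2 in the high-fat arrays, a difference of -1.13 (SE 0.32, limma unadjusted p = 0.0262, adjusted p = 0.859). Without casein diet replicate 1 it was -0.74.

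Epcam and Cdh1, the adhesion genes most used to mark epithelium, were both lowest in high-fat diet replicate 1 by the probe sets kept. Epcam, a homophilic adhesion molecule, had 2059 and 1961 in the casein arrays against 813.1 and 1953 in the high-fat arrays, a difference of -0.67 (SE 0.47). Apart from high-fat diet replicate 1, the arrays lay within 1.05-fold of each other, and without that array the difference was -0.04. Its dimmer probe set gave 201.3 and 177.1 in the casein arrays against 178.4 and 153.0 in the high-fat arrays, where replicate 1 was not the lowest. Cdh1, which encodes E-cadherin, had 2428 and 1496 in the casein arrays against 861.4 and 1426 in the high-fat arrays. It was also 1.62-fold above the next array in casein diet replicate 1. The Cdh1 difference was -0.42 without high-fat diet replicate 1 and -0.43 without casein diet replicate 1. Between the replicate 2 arrays it was -0.07. Ocln, the tight junction protein occludin, had 223.5 and 155.6 in the casein arrays against 67.9 and 169.3 in the high-fat arrays. High-fat diet replicate 1 was thus lowest for Epcam, Cdh1 and Ocln by the probe sets kept, and replicate 2 lay within or near the casein values.

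The desmosome genes were, like the keratins, highest in casein diet replicate 1. Dsp, which encodes desmoplakin and ties keratin filaments to the junction, had 1533 and 728.0 in the casein arrays against 540.8 and 722.7 in the high-fat arrays. Perp, a desmosomal membrane protein, had 850.9 and 196.9 in the casein arrays against 222.7 and 266.7 in the high-fat arrays. Casein diet replicate 1 was 2.11-fold above the next array for Dsp and 3.19-fold for Perp, and without it the differences were -0.22 and 0.31.

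The other claudins ran in a different order. Cldn3 had 338.8 and 1314 in the casein arrays against 441.2 and 1235 in the high-fat arrays, so each replicate 2 array was above each replicate 1 array, and the diets differed by 0.15 (SE 0.90). All 3 other probe sets of Cldn3 had that order too, the dimmest from 105.6 to 363.1. Cldn4 had 117.3 and 225.0 in the casein arrays against 143.9 and 159.9 in the high-fat arrays. Cldn10, which encodes a channel-forming claudin, had 439.5 and 415.3 in the casein arrays against 136.5 and 714.3 in the high-fat arrays, the lowest and highest arrays being those of the same diet. Cdh16, an epithelial cadherin, was dim and had the narrowest range, from 37.8 to 57.7.

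Epcam and Cldn3 contrast in their order of arrays, Epcam being even in 3 arrays and Cldn3 low in casein diet replicate 1. Their promoter windows, of the same extent and source, are at chr17:87635729-87636028 and chr5:134985964-134986263, both on the plus strand, with the E-box in capitals.
Epcam: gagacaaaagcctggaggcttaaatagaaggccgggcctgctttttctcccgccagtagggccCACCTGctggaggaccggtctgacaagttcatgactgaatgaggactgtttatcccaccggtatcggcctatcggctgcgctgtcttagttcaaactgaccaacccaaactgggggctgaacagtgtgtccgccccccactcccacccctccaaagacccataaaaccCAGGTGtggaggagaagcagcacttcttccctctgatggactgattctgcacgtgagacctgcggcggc
Cldn3: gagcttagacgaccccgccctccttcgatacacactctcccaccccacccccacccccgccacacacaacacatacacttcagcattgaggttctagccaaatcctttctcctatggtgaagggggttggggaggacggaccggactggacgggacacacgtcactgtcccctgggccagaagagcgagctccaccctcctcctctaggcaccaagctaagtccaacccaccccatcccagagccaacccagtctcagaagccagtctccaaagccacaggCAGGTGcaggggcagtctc
Epcam has the motif at 2 places and Cldn3 at 1. Windows were found for 24 of the 36 listed genes, 32 windows in all since some genes have several starts. Sprr2a1 and Sprr2b, whose expression was not analysed, were among the 24. Of these 32 windows 19 (59.4%), from 16 genes with Sprr2a1 among them, held the motif. Of the 13190 windows of all genes tested 18.5% held it, and of all 32851 windows of the reference list 20.2%. The median GC content was 60% for the 32 windows and 60.3% for those of all genes tested. Some windows of 1 gene overlap, as the pair of Wfdc2 does. The genes with the motif included Krt7, Krt8, Krt18, Epcam, Cldn3, Cldn4, Cldn7, Dsp, Ocln and Tjp3, whose arrays ran in different orders. The FOXA motif TGTTTAC and the GRHL motif AACCGGTT, read on both strands, were in 0 of the 32 windows, against 2.67% and 0.235% of those of all genes tested. A match is a run of letters, not a measured site.

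Transcription factor and splicing genes had lower values on the high-fat diet for 8 of 9, against 51.4% of all genes tested, with a median of -0.45. High-fat diet replicate 1 was lowest for 8 of 9, against 29.6%. Grhl2, which activates junction genes, had 293.7 and 296.7 in the casein arrays against 181.2 and 334.8 in the high-fat arrays. The brightest of its other probe sets gave 57.4 and 59.4, then 64.4 and 68.8, where high-fat diet replicate 1 was not the lowest. In its dimmer ones that array was the lowest. Esrp1, which directs epithelial splice forms, had 513.6 and 496.4 in the casein arrays against 218.1 and 511.2 in the high-fat arrays. In Grhl2 and Esrp1 the casein arrays were nearly equal and high-fat diet replicate 2 was close to them. Ehf had 355.5 and 389.1 in the casein arrays against 168.7 and 472.5 in the high-fat arrays, and Klf5, a zinc finger factor of proliferating epithelium, had 470.4 and 289.3, then 152.1 and 479.9. Without high-fat diet replicate 1, Grhl2, Esrp1, Ehf and Klf5 differed by 0.18, 0.02, 0.35 and 0.38.

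Elf3, Ovol2 and Foxa2 were highest in casein diet replicate 1. Elf3, an ETS factor of simple epithelia, had 581.8 and 233.3 in the casein arrays against 161.1 and 163.4 in the high-fat arrays, a difference of -1.18 (SE 0.49). Ovol2, a repressor of mesenchymal genes, had 138.0 and 63.9 in the casein arrays against 35.1 and 56.6 in the high-fat arrays, a difference of -1.08 (SE 0.49). Foxa2, which uterine glands need to form and which the stomach and gut also express, had 169.5 and 54.9 in the casein arrays against 44.5 and 86.1 in the high-fat arrays. Groups did not overlap for Elf3 and Ovol2, and overlapped for Foxa2. Without casein diet replicate 1 the differences of Elf3, Ovol2 and Foxa2 were -0.52, -0.52 and 0.17.

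The reproductive tract factors Sox17 and Pax8 were ordered by array, not by diet, and Foxa2 did not share their order. Sox17, which is also an endothelial gene, had 543.6 and 2594 in the casein arrays against 1269.8 and 2391 in the high-fat arrays, a difference of 0.55 (SE 0.89). Its lowest array was casein diet replicate 1, 4.77-fold below replicate 2, and its dimmer probe set gave 197.8 and 905.5, then 351.3 and 820.2, in the same order. Pax8 had 100.8 and 121.9 in the casein arrays against 62.0 and 165.4 in the high-fat arrays, a difference of -0.13 (SE 0.53). Its dimmer probe set gave 33.6 and 62.1, then 41.9 and 64.1, with casein diet replicate 1 the lowest and a difference of 0.18. The replicate 2 arrays differed by -0.12 for Sox17 and 0.44 for Pax8.

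**Figure D2:**
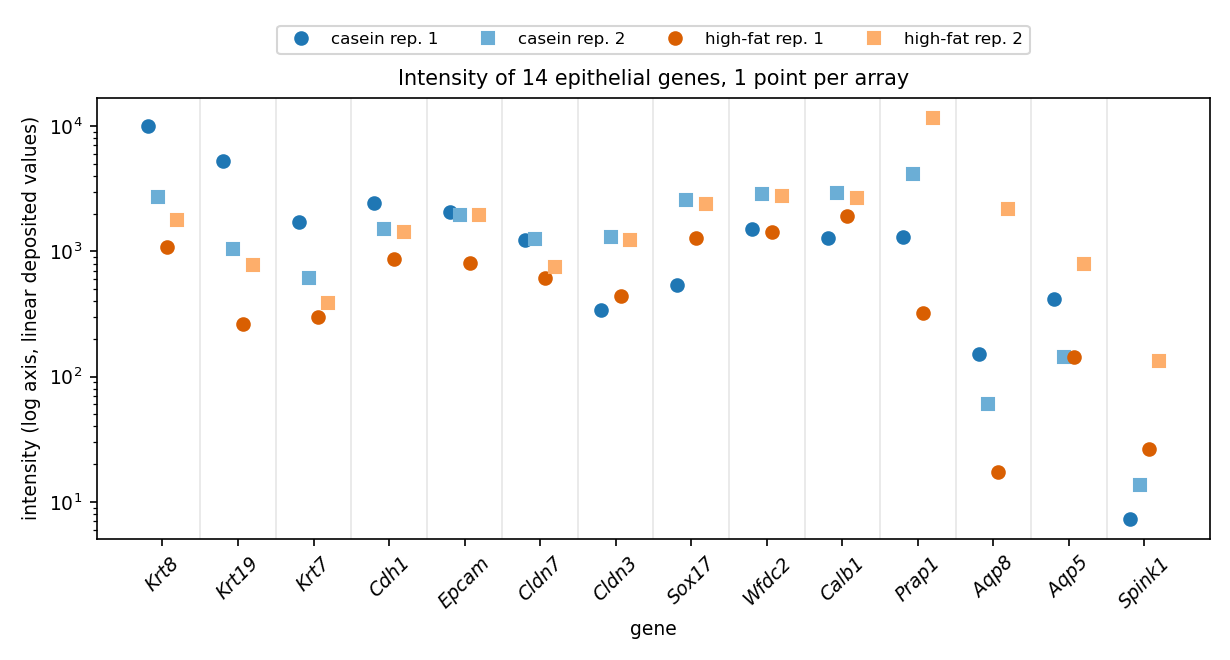
Intensity of 14 epithelial genes on a log axis, 1 point per array, blue for the casein diet and orange for the high-fat diet, circles for replicate 1 and squares for replicate 2. Krt8, Krt19 and Krt7 peak in casein diet replicate 1, Cldn3, Sox17, Wfdc2 and Calb1 are high in both replicate 2 arrays, and Prap1, Aqp8, Aqp5 and Spink1 peak in high-fat diet replicate 2.

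Both replicate 2 arrays lay above both replicate 1 arrays for 11 of the 34 genes, against 17.8% of all genes tested. Besides Cldn3, Cldn4, Sox17 and Pax8 these were Wfdc2, Calb1, Prap1, Ehf, Grhl2, Prom1 and Cdh16. Wfdc2, a secreted protein of reproductive tract epithelium, had 1496 and 2874 in the casein arrays against 1435 and 2755 in the high-fat arrays. Calb1, a calcium-binding protein of uterine epithelium, had 1271 and 2899 in the casein arrays against 1913 and 2689.7 in the high-fat arrays, and its 3 dimmer probe sets also had their lowest value in casein diet replicate 1. Within each replicate number the diets were close for Wfdc2, and the diet differences of Wfdc2 and Calb1 were -0.06 (SE 0.50) and 0.24 (SE 0.48). Prom1, a protein of apical membrane protrusions, had 1959.7 and 2027 in the casein arrays against 1035 and 2145 in the high-fat arrays. Nothing in the labels ties arrays of the same number together. Casein diet replicate 1 was the highest array for 16 of the 34 genes, against 33.4% of all genes tested, so in that array keratin, desmosome and gastric values were high while Sox17, Cldn3 and Calb1 values were at their lowest.

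Prap1 and Aqp8 had the widest ranges of the 34 genes. Prap1, a secreted protein abundant in uterine epithelium, had 1303 and 4121 in the casein arrays against 320.1 and 11683 in the high-fat arrays. Its high-fat arrays differed 36.5-fold, and its other probe set gave 1424 and 4675, then 488.0 and 9726. The diet difference was -0.26 (SE 2.0, 95% interval -5.97 to 5.45), an interval that spans both directions. Aqp8, a water channel, had 152.8 and 60.9 in the casein arrays against 17.4 and 2165 in the high-fat arrays, a 125-fold gap within the high-fat diet. The lower of these values was below the intensity minimum of 34.7, where values have no detection call, so the size of that gap is uncertain. Aqp5, a water channel of secretory glands, had 413.9 and 143.9 in the casein arrays against 142.5 and 794.5 in the high-fat arrays. Spink1, a secreted trypsin inhibitor, had 7.37 and 13.6 in the casein arrays against 26.3 and 133.9 in the high-fat arrays. Only high-fat diet replicate 2 was above the intensity minimum for Spink1. Its difference of 2.57 (SE 0.92) therefore rests on values below that minimum in both casein arrays and in high-fat diet replicate 1. Prap1, Aqp8, Aqp5 and Spink1 were thus each highest in high-fat diet replicate 2, and Prap1, Aqp8 and Aqp5 were there at 2.84-, 35.5- and 5.52-fold the level in casein diet replicate 2.

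Wnt7a was the only gene lower in high-fat diet replicate 2 than in replicate 1. It encodes a Wnt ligand of the uterine luminal epithelium that adult gland formation depends on. Its intensities were 70.7 and 93.2 in the casein arrays against 47.0 and 36.9 in the high-fat arrays, a difference of -0.96 (SE 0.21, 95% interval -1.57 to -0.36, limma unadjusted p = 0.0124, adjusted p = 0.859). It was -1.16 to -0.77 when any 1 array was left out. Of its other probe sets, the brighter had 44.2 and 43.5 in the casein arrays against 45.02 and 42.7 in the high-fat arrays, so it did not show the difference.

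The membrane protease genes were, like Epcam, lowest in high-fat diet replicate 1. St14, which encodes matriptase, had 677.5 and 438.0 in the casein arrays against 238.8 and 659.4 in the high-fat arrays. Tmprss2, a related serine protease, had 481.1 and 376.9 in the casein arrays against 182.9 and 449.4 in the high-fat arrays, and its next 2 probe sets also had their lowest value in high-fat diet replicate 1. Without that array St14 and Tmprss2 differed by 0.28 and 0.08.

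**Figure D3:**
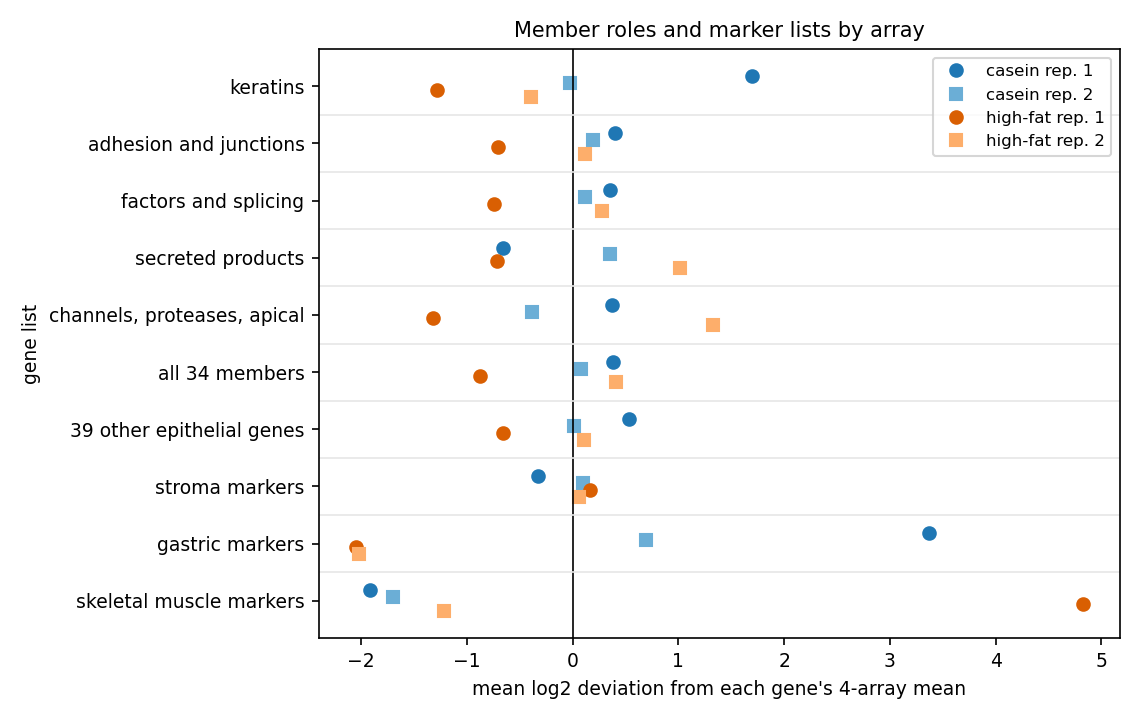
Mean log2 deviation from each gene's 4-array mean, for the 5 roles of the 34 epithelial genes, the 34 together, 39 other epithelial genes and 3 marker lists (x axis), 1 point per array with colours and shapes for diet and replicate. The 34 genes lie at -0.88 in high-fat diet replicate 1 and between 0.08 and 0.41 elsewhere, whereas stroma markers lie between -0.33 and 0.16, and skeletal muscle markers at 4.83 in high-fat diet replicate 1.

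The low array was the same for other epithelial genes. Of 42 further genes of junctions, polarity, epithelial proteases and epithelial transcription factors, 39 were on the array and 36 were tested. Of the 36, 32 had lower values on the high-fat diet, against 51.4% of all genes tested, with a median of -0.57. High-fat diet replicate 1 was lowest for 33 of these 36, against 29.6% of all genes tested. Casein diet replicate 1 was highest for 26 of the 36 (72.2%), against 33.4%. Their mean deviation was 0.59 in casein diet replicate 1 and -0.67 in high-fat diet replicate 1. Groups did not overlap, lower on the high-fat diet, for 14 (38.9%), against 19.5%. Spint2, an inhibitor of matriptase and the brightest of them, had 2353 and 1928 in the casein arrays against 1209 and 2945 in the high-fat arrays. The replicate 2 pair leaves out both replicate 1 arrays. Between the replicate 2 arrays the 36 genes had a median of 0.01, and 18 were higher on the high-fat diet. The 6 mesenchymal transcription factor genes of the ZEB, SNAI and TWIST families had a mean deviation of 0.18 in high-fat diet replicate 1 and -0.15 to -0.002 in the others, and 0 of them passed limma's adjusted test or its unadjusted p under 0.05. Snai2, the brightest of the 6, had 1558 and 1389 in the casein arrays against 1718 and 1442 in the high-fat arrays. Zeb2, with the largest diet difference of them, had 1299 and 1322, then 1836 and 1432. Of the 6, 5 had higher values on the high-fat diet and 1 had lower values.

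High-fat diet replicate 1 was thus low for epithelial genes and high for the 8 skeletal muscle markers, whose mean deviation was 4.83 there and -1.91 to -1.22 in the other arrays, and whether the muscle content bears on the epithelial values was not tested. Stroma markers had a mean deviation of 0.16 in that array against 0.06 in high-fat diet replicate 2. It was the lowest array for 3 of the 10, Pgr and Esr1 among them, against 29.6% of all genes tested. Gastric markers had mean deviations of -2.05 and -2.02 in the high-fat arrays. Of 11 intestinal markers, all on the array, the sums were 5269 and 750.3 in the casein arrays against 374.5 and 625.6 in the high-fat arrays. Lgals4 was the brightest of the 11, and 4 were below the intensity minimum. The sums of 8 mesothelium markers were 957.9 and 716.5, then 516.1 and 546.0. Casein diet replicate 1 was the highest array for 6 of the 8. It was the lowest for Wt1, the brightest, with 245.3 and 310.8, then 301.1 and 307.6. The sums of 7 of 9 exocrine pancreas markers were 1827 and 440.4, then 423.1 and 406.4. Cela1 gave the most to them, with 1443 and 215.4, then 199.1 and 159.9. The median difference of the 7 was -0.06, and 2 were below the intensity minimum. Of 6 ciliated cell markers 4 were below the intensity minimum, with sums from 262.3 to 361.9, and of 3 urothelium markers 2 were below it, with sums from 129.6 to 140.9.

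Between the replicate 2 arrays, where muscle was low in both and gastric markers still summed to 10373 and 515.1, epithelial genes were evenly divided. Of the 34 genes 17 lay above and 17 below the casein array, with a median of 0.02, and all genes tested had a median of -0.001. This pair was chosen after the data were examined and has no replicate and no test. What the muscle content has to do with the even division was not tested. Between these arrays Wnt7a and Cldn7 differed by -1.34 and -0.74, Epcam, Dsp and Wfdc2 by -0.01, -0.01 and -0.06, and Aqp8 by 5.15.

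**Figure D4:**
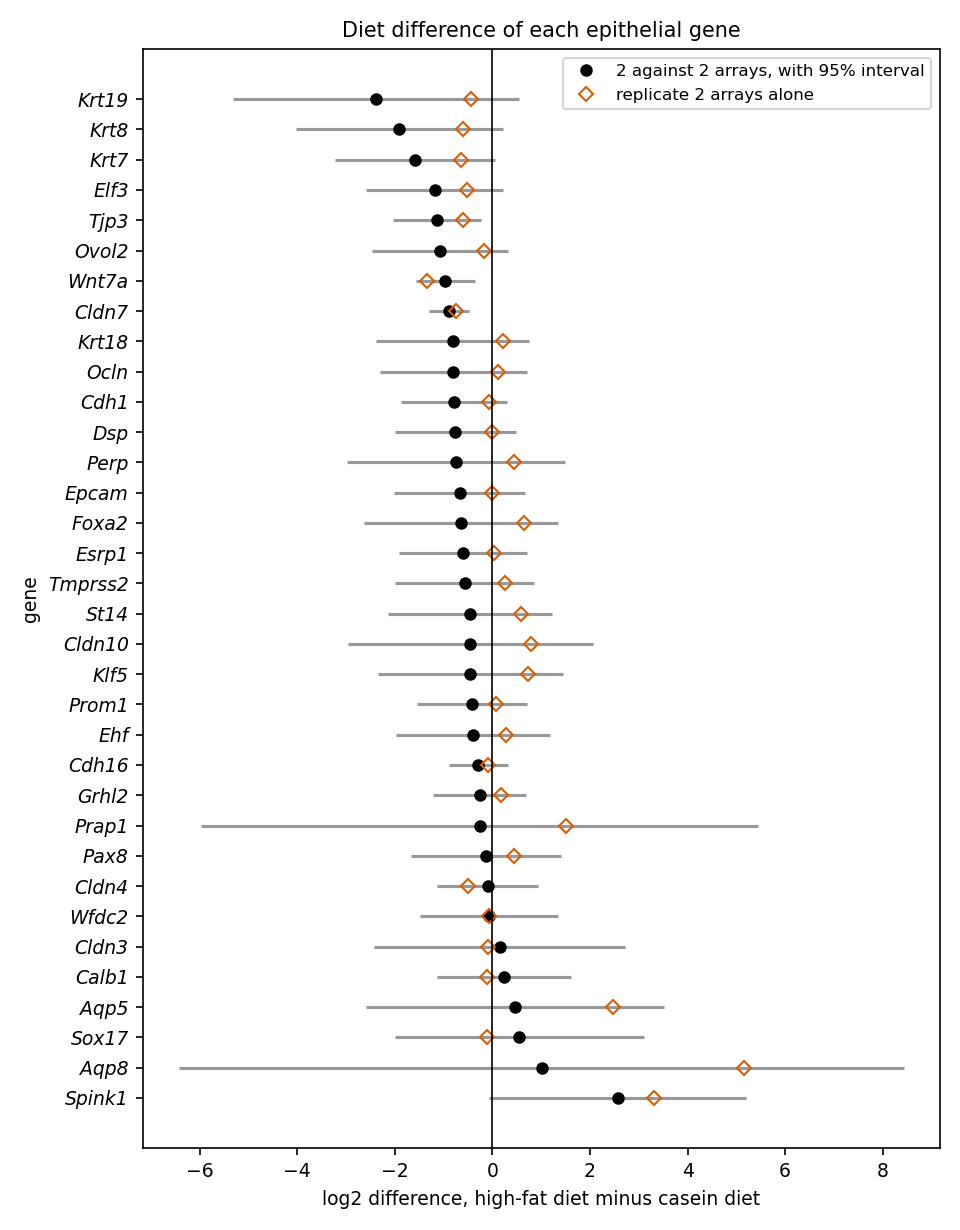
Log2 difference of high-fat diet minus casein diet for each of the 34 epithelial genes (rows), with black points for the limma estimate from 2 against 2 arrays, grey lines for its 95% interval and open orange diamonds for the replicate 2 arrays alone. Of the intervals only those of Tjp3, Wnt7a and Cldn7 lie wholly on 1 side of 0, and 17 diamonds lie on each side.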

How the data were processed

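RNA of 4 lesion samples was labelled from 0.1 µg total RNA, per the labels' protocols. The authors deposited 1 linear intensity per probe set and array. GCOS and RMA are named, per the submitters' processing notes, with roles and versions not given in the sources used here. Since the values were linear, log2 was taken before any test with no pseudocount. Of 45101 probe sets, 64 were controls, 34945 had 1 gene symbol, 932 several and 9160 none, by the platform annotation, and those with 1 symbol were used. Identifiers of 34741 matched RefSeq (GRCm38.p6), and 0 symbols changed. The probe set with the highest mean stood for its gene. Genes whose mean reached the 40th percentile of non-control probe sets were tested together, across all genes, with limma 3.58.1 (R 4.3.3; lmFit, eBayes, 3.73 total degrees of freedom, two-sided, Benjamini-Hochberg). The test was checked on simulated data. The file gives no detection calls or scan dates, so no batch could be set. The number of arrays limits the precision. The members, their roles and the marker lists were chosen with earlier results of these data known. All members were named, and of other lists at most the 3 brightest genes, apart from Hoxa10, Pgr and Esr1. Alternatives covered normalisation, filters, pseudocount, probe set choice, variance model, replicate block and each array left out. Figures used matplotlib 3.10.9.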

Additional observations from a re-analysis of the deposited data

How the results depend on the processing

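With each array left out in turn, where a lone array is assumed to vary like those of the other diet, the count of genes called by limma was 0 to 24, the 24 being without casein diet replicate 2, and the count of the 34 epithelial genes called was 0 throughout. The members' median was -1.14 to -0.0024 and the number higher on the high-fat diet 2 to 17, the lowest median and smallest number being without high-fat diet replicate 2 and the highest of both without high-fat diet replicate 1. With the replicate 2 arrays alone, an alternative chosen after the data were examined, 17 were higher. In the fit with the replicate number as a block the members' median was -0.51, unchanged because the design is balanced, and 0 genes were called. Same-numbered arrays deviated from their group means with r = -0.02 across genes. A correlation over all genes cannot show whether same-numbered arrays are linked for some of them. Quantile normalisation, median centring, the other filters, a pseudocount of 16, other probe set choices, a variance trend and array weights gave medians of -0.57 to -0.43 and 0 calls. With means of log2 values for the filter, also chosen later, Spink1 was not tested. Of 538 member values under the 16 alternatives, 43 had the opposite sign, and 13 members kept their sign in every alternative run. These counts overstate stability. The replicate block, the lack of a filter, the 60th percentile filter, the variance trend and array weights left each member's difference as it was, so no sign could turn there. The ranges with 1 array left out that crossed 0 were Cldn3 -0.83 to 1.12, Perp -1.80 to 0.31, Foxa2 -1.45 to 0.17, Sox17 -0.57 to 1.68, Calb1 -0.35 to 0.84, Cldn4 -0.57 to 0.37, Pax8 -0.84 to 0.58, Wfdc2 -0.53 to 0.41, Prap1 -2.86 to 2.33, Aqp5 -0.78 to 1.70, Cldn10 -1.65 to 0.74, Ehf -1.14 to 0.35, Grhl2 -0.70 to 0.18, Klf5 -1.28 to 0.38, Esrp1 -1.21 to 0.018, Tmprss2 -1.22 to 0.078, St14 -1.19 to 0.28, Prom1 -0.94 to 0.11 and Aqp8 -2.47 to 4.49. With the replicate 2 arrays alone the sign turned for Krt18 0.22, Cldn3 -0.089, Cldn10 0.78, Ocln 0.12, Perp 0.44, Foxa2 0.65, Ehf 0.28, Pax8 0.44, Grhl2 0.17, Klf5 0.73, Sox17 -0.12, Esrp1 0.042, Prap1 1.504, Calb1 -0.11, Tmprss2 0.25, St14 0.59 and Prom1 0.082. The mean of all probe sets turned Pax8 to 0.026. The cause was not tested. Detection calls were not used here, so how far dim genes such as Spink1, Cdh16 and Wnt7a stand above background is unknown.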
